A study of Homo sapiens with 6 samples.

Results

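The Kruppel-like factors (KLF) described here are 10 genes of one transcription factor family, KLF2, KLF3, KLF4, KLF5, KLF6, KLF9, KLF10, KLF11, KLF13 and KLF15. These genes were chosen by name, with earlier results of these data known. They were represented by 29 of the 54613 probe sets tested, each paired with 1 gene in the platform annotation. KLF10 had 1 probe set and the other 9 genes had more than 1. The study treated LNCaP cells, an established androgen-responsive human prostate cancer line, with siPCARNEQ, an siRNA (small interfering RNA) to the non-coding RNA PCARNEQ, or with siEGFP, a control siRNA against EGFP, a jellyfish-derived reporter absent from human cells. Each group had 3 single-colour Affymetrix arrays of total RNA. Time after transfection, siRNA dose and sequence were not given in the sources used here, and the labels name 1 cell line and no separate cultures. The p-values therefore cover array-to-array spread alone, and that spread may be technical. The level of PCARNEQ itself was not analysed here.

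KLF proteins bind GC-rich and CACCC-containing DNA through a run of zinc fingers at the C-terminal end, which is much alike between members, while the N-terminal parts differ and recruit different partners. KLF2, KLF4, KLF5 and KLF6 carry activating regions and bind acetyltransferases, KLF3 binds the corepressor CtBP, and KLF9, KLF10, KLF11 and KLF13 bind the corepressor SIN3A. KLF15 is best known for control of glucose and amino acid metabolism. In epithelia, KLF4 is linked to differentiation and cell cycle exit and KLF5 to proliferation, and KLF6 has been studied as a growth suppressor in prostate cancer.

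KLF4, KLF6, KLF3, KLF9 and KLF13 were higher in siPCARNEQ cells in at least 1 probe set each, and no KLF probe set passed as lower. The changes that passed lay between 0.38 and 1.09 on the log2 scale, that is 1.3-fold to 2.12-fold, with KLF4 and KLF13 at the upper end. In such bulk RNA, a change in the share of cells that express a gene cannot be told apart from a change in RNA per cell. KLF5 was the one gene whose probe sets all lay lower in siPCARNEQ cells, without passing, and the brightest probe sets of KLF2 and KLF15 had changes of 0.05 and 0.02. Of the 29 probe sets, 7 rose (24.1%), 0 fell and 22 did not pass in limma, with p-values adjusted by Benjamini-Hochberg over all probe sets and a threshold of 0.05. Of the 22, 7 had an unadjusted p below 0.05, but the share of all probe sets at that unadjusted threshold was not computed. Of all probe sets tested, 18.5% passed, 9.92% as higher and 8.61% as lower. With dim probe sets left out, 8 of 24 KLF probe sets passed as higher and 0 as lower. Of all 27307 probe sets then kept, 4961 passed as higher and 4553 as lower. The median log2 change was 0.22 over the 29 probe sets and -0.01 over all probe sets. All 5 probe sets that lay below the array median of 7.03 in both groups, so that signal above background is not established for them, were among those that did not pass.

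How many passed depended on the arrays used. Arrays with the same replicate number deviated together, and with that number as a block 14 KLF probe sets passed as higher and 2, both of KLF5, as lower. Most of this separated array 1 from arrays 2 and 3, whose deviations also correlated across groups between unlike numbers (0.37 and 0.24). The block was taken from these same values, no shared batch being stated, so the p-values with the block given below rest on an assumed pairing. The count of higher probe sets was 14 without siPCARNEQ array 1 and 3 or 4 without any other single array (3 without siPCARNEQ array 3 or siEGFP array 2, 4 without siPCARNEQ array 2, siEGFP array 1 or siEGFP array 3). It was 1 when arrays 2 and 3 of a group were averaged and counted as 1 sample. Array 1 stood apart in both groups. The SD of the log2 difference across all probe sets was 0.37 between siPCARNEQ array 1 and either other siPCARNEQ array, against 0.14 between siPCARNEQ arrays 2 and 3. It was 0.23 or 0.24 for siEGFP array 1 and 0.13 for siEGFP arrays 2 and 3. RNA integrity was read from ACTB, whose 3' control probe set exceeded the 5' one by 1.84 on the log2 scale on siPCARNEQ array 1. The excess was 0.69 and 0.68 on siPCARNEQ arrays 2 and 3, and 0.63 to 0.78 on the siEGFP arrays. For GAPDH the same difference was 0.26 on siPCARNEQ array 1, -0.09 and -0.14 on siPCARNEQ arrays 2 and 3, and -0.07 to -0.03 on the siEGFP arrays. The part of RNA integrity in the KLF values was not tested.

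**Figure D1:**
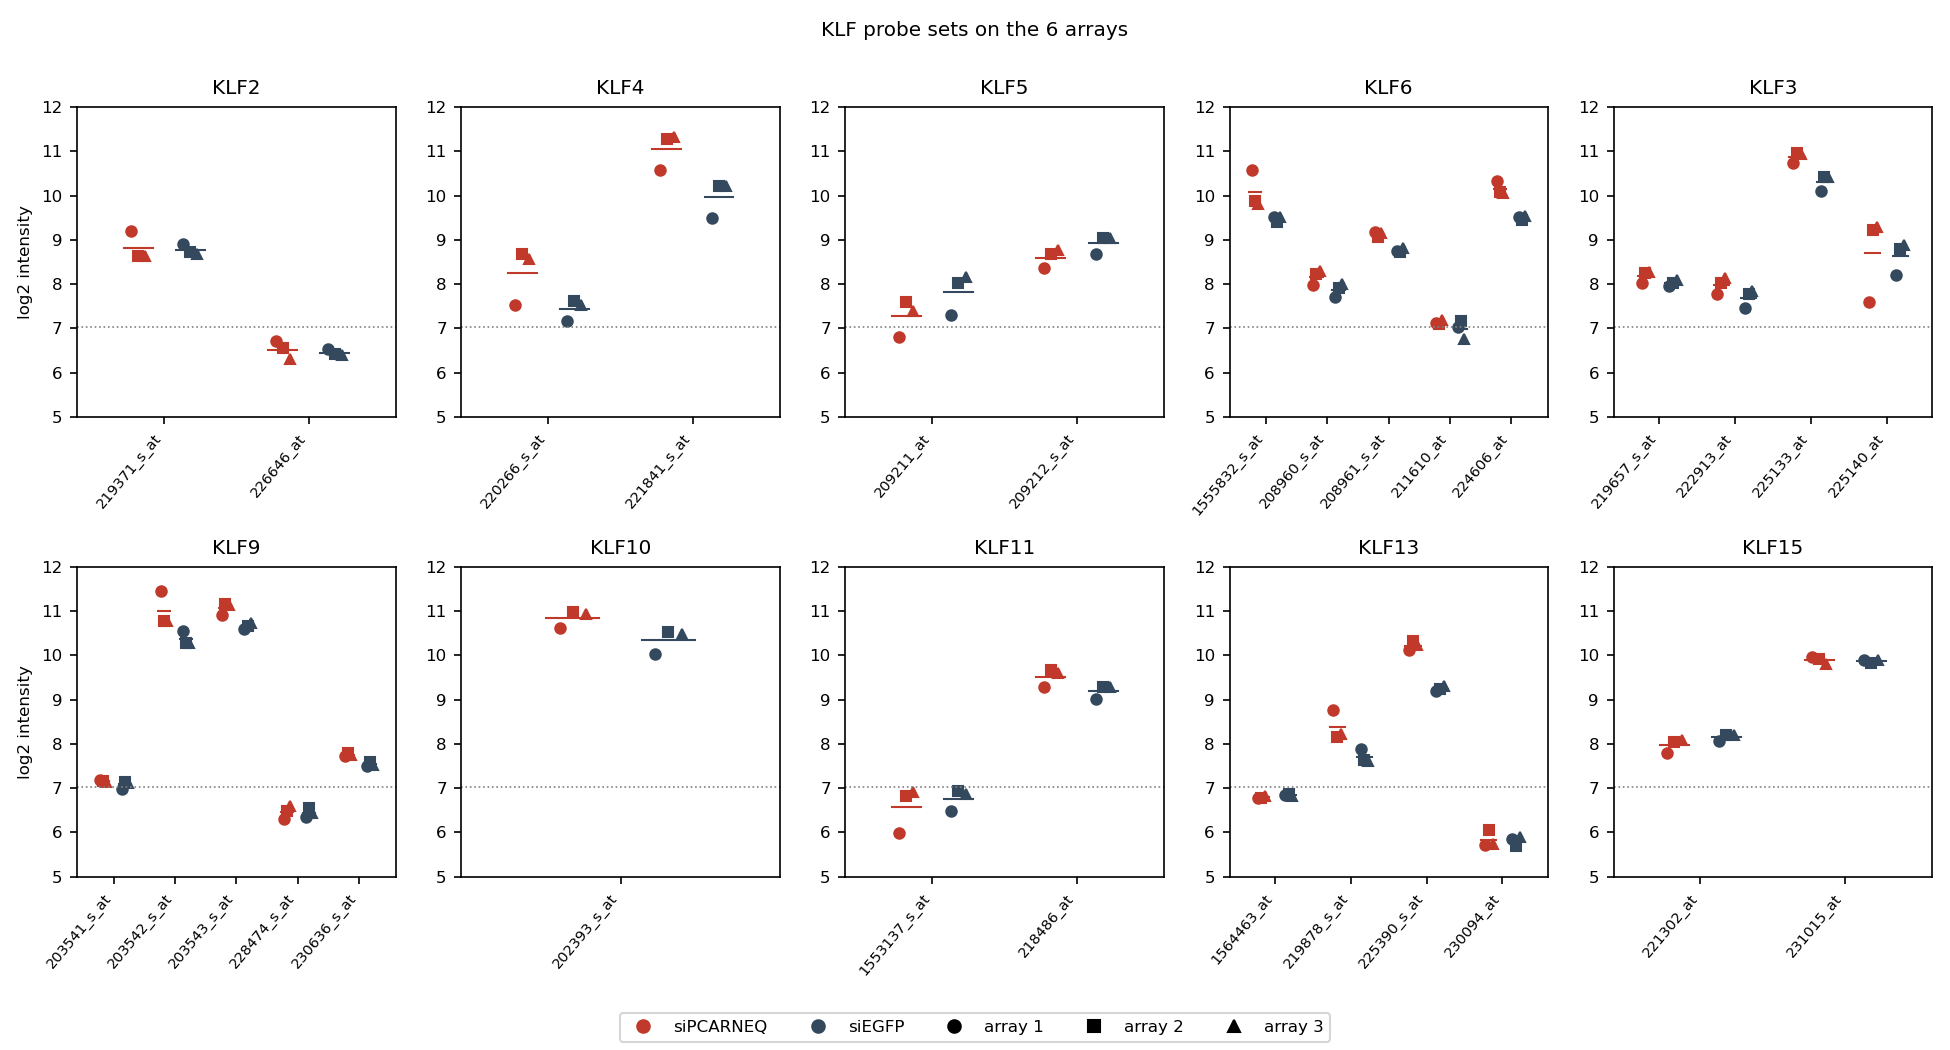
Log2 intensity (vertical axis) of all 29 KLF probe sets on each array, with siPCARNEQ in red left of siEGFP in blue, symbols for the array number, short lines for group means and a dotted line at the array median of 7.03. In KLF4 221841_s_at, KLF6 224606_at and KLF13 225390_s_at every siPCARNEQ array lies above every siEGFP array.

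Among the activating members, KLF4, a factor of epithelial differentiation and of reprogramming to pluripotency, had the largest change among the 29 probe sets with all 6 arrays. Without siEGFP array 1 or siPCARNEQ array 3 its value (0.85 and 0.95) was below that of KLF13 225390_s_at (0.95 and 0.97). The brightest KLF4 probe set, 221841_s_at, had log2 intensities of 10.57, 11.27 and 11.33 on siPCARNEQ arrays 1 to 3, against 9.49, 10.22 and 10.20 on siEGFP arrays 1 to 3. Array 1 was the lowest of its group in both treatments, and the groups did not overlap. The change was 1.09 (SE 0.27, 2.12-fold, adjusted p = 0.0302). Between arrays of the same number the difference was 1.08, 1.06 and 1.13. Most of the spread within groups thus lay between array 1 and arrays 2 and 3, in both treatments. With the replicate block, an assumed pairing, the adjusted p was 0.00104. The probe set passed without siPCARNEQ array 1 (adjusted p = 0.00509) and did not pass without any other single array (0.0629 to 0.0914). The second probe set, 220266_s_at, lay at 7.54, 8.68 and 8.56 in siPCARNEQ cells and 7.16, 7.61 and 7.53 in siEGFP cells. Its siPCARNEQ array 1 fell within the siEGFP range, and its change of 0.82 (SE 0.30) passed only once that array was left out, weighted down or paired (adjusted p = 0.11 over all 6 arrays, 0.0163 with the replicate block and 0.00137 without siPCARNEQ array 1).

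KLF6 is known as an activator induced early after injury or growth stimulation. Probe set 224606_at had log2 intensities of 10.34, 10.09 and 10.05 in siPCARNEQ cells and 9.51, 9.45 and 9.53 in siEGFP cells. The groups were well apart, and the change was 0.66 (SE 0.09, 1.58-fold, adjusted p = 0.00376). It passed without each single array in turn (adjusted p = 0.00144 to 0.025), but not once arrays 2 and 3 were averaged (0.0627). Probe set 208961_s_at lay at 9.19, 9.07 and 9.15 against 8.75, 8.72 and 8.81 in siEGFP cells, a smaller rise of 0.38 (SE 0.07, adjusted p = 0.0117) that did not pass without siEGFP array 2 (adjusted p = 0.0613). The other 3 probe sets of KLF6 had positive changes that did not pass, 0.61 in 1555832_s_at, 0.29 in 208960_s_at and 0.14 in 211610_at. In 1555832_s_at the arrays were 10.57, 9.87 and 9.82 in siPCARNEQ cells and 9.53, 9.39 and 9.51 in siEGFP cells, so siPCARNEQ array 1 lay far above the rest. The first 2 of these passed with the replicate block (adjusted p = 0.0424 and 0.0325).

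KLF5, which promotes proliferation in many epithelia, lay on the other side of no change in both of its probe sets. Probe set 209212_s_at was at 8.35, 8.68 and 8.77 in siPCARNEQ cells and 8.67, 9.04 and 9.05 in siEGFP cells. Each siPCARNEQ array was below the siEGFP array of the same number, by a difference of -0.32, -0.36 and -0.28, while the groups overlapped. The change was -0.32 (SE 0.15, 95% interval -0.67 to 0.03, adjusted p = 0.2), and -0.56 (SE 0.28, adjusted p = 0.235) in 209211_at. With the replicate block both passed as lower (adjusted p = 0.026 and 0.0121).

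KLF2, best known from endothelium and T cells, had log2 intensities of 9.20, 8.64 and 8.63 in siPCARNEQ cells and 8.90, 8.73 and 8.67 in siEGFP cells in probe set 219371_s_at. The groups overlapped, and the change was 0.05 with a 95% interval of -0.33 to 0.44 (adjusted p = 0.869). Its other probe set, 226646_at, lay below the array median in both groups.

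**Figure D2:**
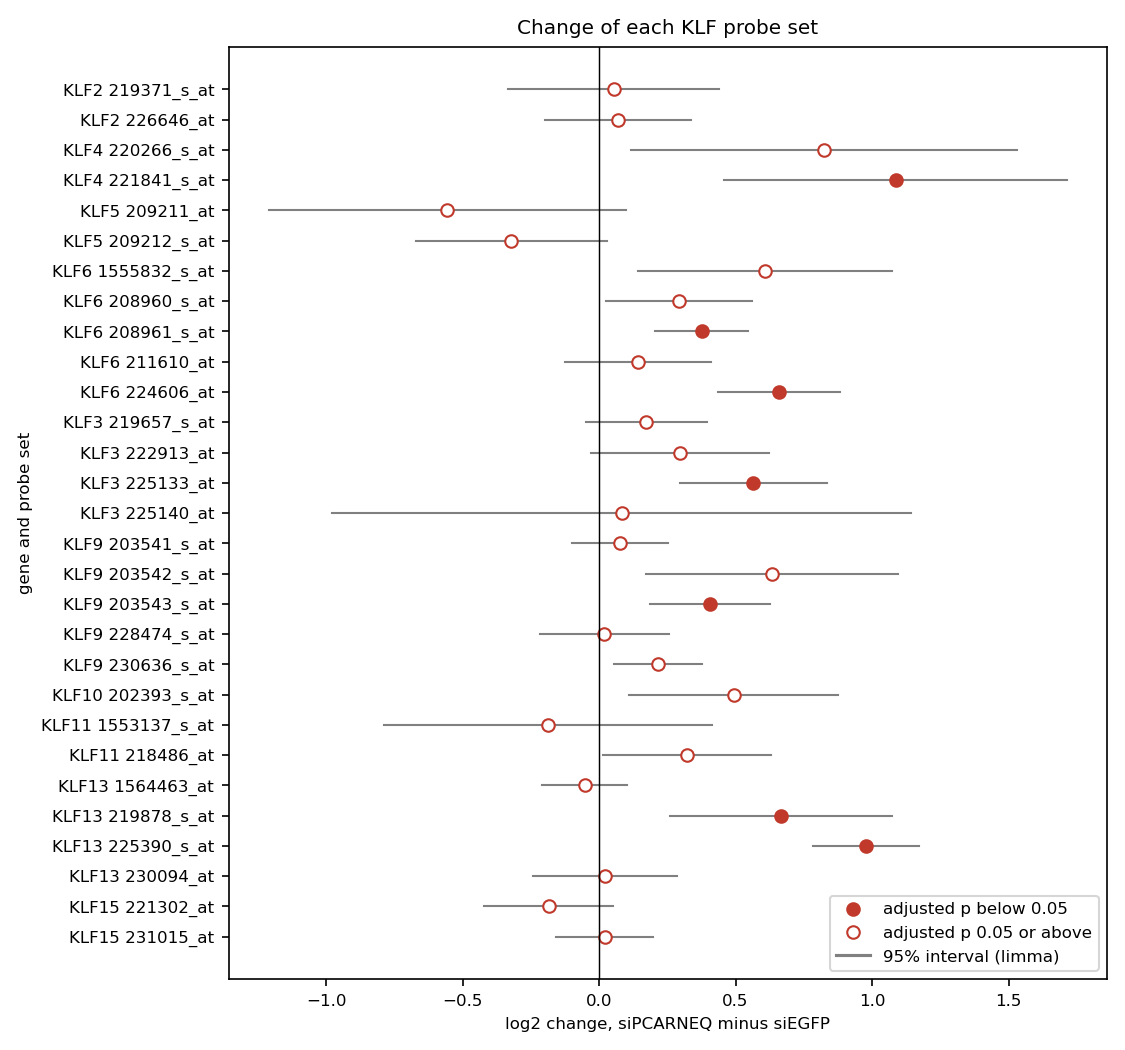
Log2 change, siPCARNEQ minus siEGFP (horizontal axis), of each KLF probe set with its 95% interval from limma, filled where the adjusted p over all probe sets was below 0.05. The 7 filled points all lie to the right of 0, from 0.38 to 1.09, and both KLF5 points lie to the left.

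KLF3, which represses transcription through CtBP, rose in 1 of its 4 probe sets. Probe set 225133_at, the brightest, had log2 intensities of 10.73, 10.95 and 10.93 in siPCARNEQ cells and 10.10, 10.41 and 10.41 in siEGFP cells, with no overlap. Its change was 0.57 (SE 0.11, 1.48-fold, adjusted p = 0.0148), with differences of 0.64, 0.54 and 0.52 by array number, and adjusted p values of 0.0534 and 0.0538 without siPCARNEQ array 2 or array 3. Probe sets 219657_s_at and 222913_at changed in value by 0.17 and 0.30 without passing, and 222913_at passed with the replicate block (adjusted p = 0.0331). Probe set 225140_at gave opposite signs by array number, with 7.61, 9.22 and 9.30 in siPCARNEQ cells and 8.21, 8.78 and 8.88 in siEGFP cells. Array 1 was the lowest of its group in both treatments there, and the change was 0.08 with a 95% interval of -0.98 to 1.14.

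Of the members that bind SIN3A, KLF13 had the smallest adjusted p. It is known as an activator of the chemokine gene CCL5 in T cells. Probe set 225390_s_at had log2 intensities of 10.12, 10.31 and 10.24 in siPCARNEQ cells and 9.19, 9.24 and 9.31 in siEGFP cells. The gap between the groups was far wider than either group's range. Its change was 0.98 (SE 0.08, 1.97-fold, adjusted p = 0.000504), and it passed under each of the 14 alternative settings that kept this probe set, with adjusted p of 8.28e-06 to 0.0303. Probe set 219878_s_at rose by 0.67 (SE 0.17, adjusted p = 0.0375), from arrays at 8.76, 8.15 and 8.22 in siPCARNEQ cells and 7.88, 7.63 and 7.61 in siEGFP cells. It did not pass without siPCARNEQ array 3 or any single siEGFP array (adjusted p = 0.0577 to 0.133). The other 2 probe sets, 1564463_at and 230094_at, lay below the array median in both groups, with changes of -0.05 and 0.02.

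KLF9, a gene induced by thyroid and glucocorticoid hormone, rose in 1 of 5 probe sets. In 203543_s_at the arrays were at 10.91, 11.15 and 11.14 in siPCARNEQ cells and 10.59, 10.66 and 10.73 in siEGFP cells. The groups did not overlap, and the change was 0.41 (SE 0.09, 1.32-fold, adjusted p = 0.0236). It passed without siPCARNEQ array 1 (adjusted p = 0.00383) and not without any other single array (0.0609 to 0.0876). Probe set 203542_s_at had a larger and less certain change of 0.63 (SE 0.20, adjusted p = 0.0677), with 11.46 on siPCARNEQ array 1 against 10.77 and 10.78 on siPCARNEQ arrays 2 and 3, and 10.55, 10.27 and 10.28 in siEGFP cells. With the replicate block it passed at an adjusted p of 0.0116. Probe sets 230636_s_at, 203541_s_at and 228474_s_at had changes of 0.22, 0.08 and 0.02 that did not pass.

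KLF10 and KLF11 are induced early by TGF-beta, a growth-restraining signal in many epithelia. KLF10 was at 10.61, 10.98 and 10.93 in siPCARNEQ cells and 10.03, 10.53 and 10.49 in siEGFP cells (202393_s_at). The groups did not overlap and array 1 was lowest in both, and the change of 0.49 (SE 0.16, adjusted p = 0.0834) did not pass, whereas it had an adjusted p of 0.00771 with the replicate block and 0.0277 without siPCARNEQ array 1. KLF11 probe set 218486_at changed in value by 0.32 (SE 0.13) without passing (adjusted p = 0.148), with 9.28, 9.66 and 9.59 in siPCARNEQ cells and 9.01, 9.29 and 9.28 in siEGFP cells. With the replicate block its adjusted p was 0.0266. Its dim probe set 1553137_s_at had a change of -0.19.

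KLF15, a metabolic regulator that activates the glucose transporter gene SLC2A4, showed no change beyond the spread between arrays. Probe set 231015_at had log2 intensities of 9.97, 9.92 and 9.81 in siPCARNEQ cells and 9.89, 9.84 and 9.90 in siEGFP cells, a change of 0.02 with a 95% interval of -0.16 to 0.20. In 221302_at the change was -0.18 (95% interval -0.42 to 0.05, adjusted p = 0.274).

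The direction of the brightest probe sets was shared by all 3 array numbers in 8 of the 10 genes, 7 of them higher and 1, KLF5, lower, while KLF2 and KLF15 had mixed signs. Over all 29 probe sets, 24 had the same sign in array 1 as in arrays 2 and 3 together. The share of all genes or probe sets with such shared signs was not computed. These counts therefore do not set the KLF genes apart from other genes. The groups did not overlap in 12 KLF probe sets (41.4%), all higher in siPCARNEQ cells, against 37.7% of all probe sets in either direction and 18.6% as higher. The 41.4% was near the share for either direction and above the share for higher alone.

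**Figure D3:**
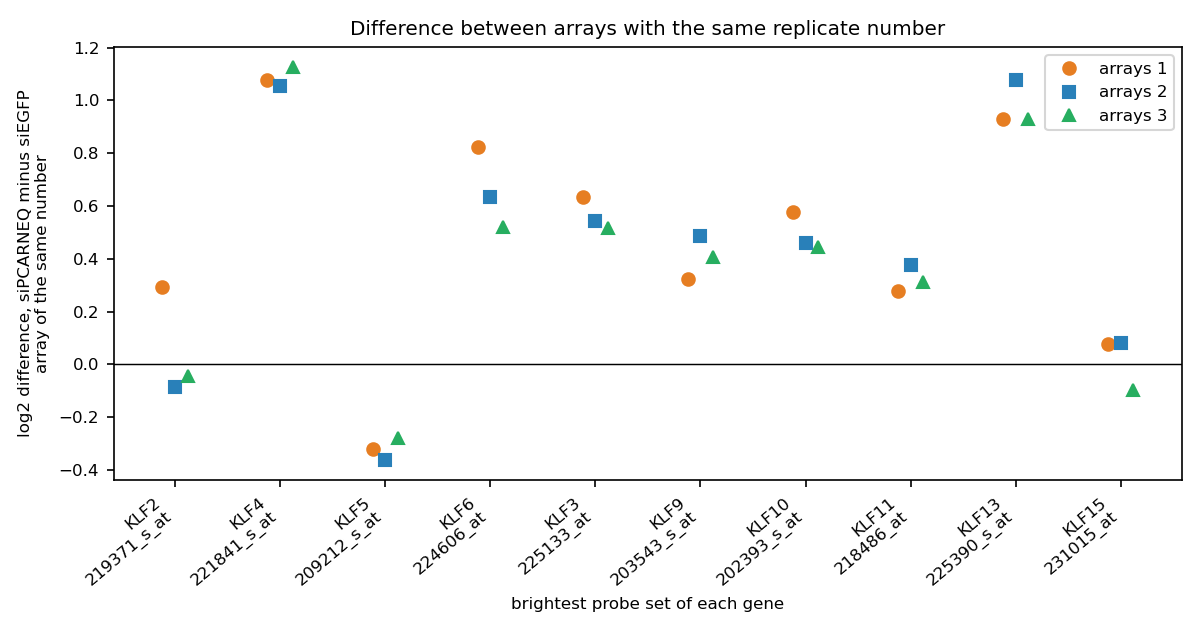
Log2 difference between the siPCARNEQ and the siEGFP array of the same number (vertical axis) for the brightest probe set of each KLF gene, with 1 symbol per array number. KLF4 lies at 1.06 to 1.13 and KLF13 at 0.93 to 1.08 in all 3, KLF5 lies at -0.36 to -0.28, and KLF2 and KLF15 straddle 0.

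The DNA just before the transcription start is shown for KLF4, KLF6, KLF9 and KLF13. These genes rose, and KLF proteins themselves bind GC boxes and CACCC elements. KLF3 also rose, but no window was matched for it or for KLF10. RefSeq windows (GRCh38.p14) were matched for 8 of the 10 genes, and each sequence below gives the 250 bases before the start, on the gene's strand from 5′ to 3′. Capitals mark the GC box GGGCGG and CACCC on either strand, which overlap at 1 place in KLF13.
KLF4, chr9:107489770-107490019, minus strand: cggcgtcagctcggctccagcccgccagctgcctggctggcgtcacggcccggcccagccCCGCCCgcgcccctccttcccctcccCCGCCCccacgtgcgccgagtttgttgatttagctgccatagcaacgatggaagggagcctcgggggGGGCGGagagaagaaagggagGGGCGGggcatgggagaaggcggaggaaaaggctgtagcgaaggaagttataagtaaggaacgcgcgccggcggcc
KLF6, chr10:3785210-3785459, minus strand: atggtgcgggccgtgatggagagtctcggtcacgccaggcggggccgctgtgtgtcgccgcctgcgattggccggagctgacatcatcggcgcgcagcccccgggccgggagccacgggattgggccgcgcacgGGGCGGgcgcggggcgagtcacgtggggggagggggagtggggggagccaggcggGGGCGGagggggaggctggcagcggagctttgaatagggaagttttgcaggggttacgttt
KLF13, chr15:31326585-31326834, plus strand: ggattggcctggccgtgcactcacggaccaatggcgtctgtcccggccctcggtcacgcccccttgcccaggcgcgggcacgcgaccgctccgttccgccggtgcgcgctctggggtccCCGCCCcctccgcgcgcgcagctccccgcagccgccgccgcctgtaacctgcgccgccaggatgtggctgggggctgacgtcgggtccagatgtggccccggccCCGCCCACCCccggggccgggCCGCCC
KLF9, chr9:70414658-70414907, minus strand: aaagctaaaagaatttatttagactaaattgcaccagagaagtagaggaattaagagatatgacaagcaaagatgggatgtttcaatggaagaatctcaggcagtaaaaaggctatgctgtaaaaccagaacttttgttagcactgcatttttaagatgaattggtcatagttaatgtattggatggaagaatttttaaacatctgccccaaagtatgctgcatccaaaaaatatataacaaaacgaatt

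The KLF4 window held 4 GC boxes, the KLF13 window 3 and the KLF6 window 2, while the KLF9 window, with 32.4% G and C, held none. The KLF4, KLF13 and KLF6 windows had 69.2%, 78.8% and 72.4% G and C, against a median of 58% over all windows. CACCC was present once in KLF13 and absent from the windows of KLF4, KLF6 and KLF9. Among all 35116 windows of this length, 42.6% held the GC box and 54.7% held CACCC. KLF2 and KLF15, which did not pass, had 4 and 6 GC boxes. KLF5 and KLF11, which also did not pass, had 2 windows each, with 0 and 2 GC boxes for KLF5 and 2 and 6 for KLF11. These matches describe letters in a window, and binding was not measured.

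Genes around the members were read from lists chosen from general knowledge, with earlier results of these data known. Counts set beside the share of all genes are therefore not a test of sets fixed in advance. The brightest probe set stood for a gene, and p-values were adjusted over all 19775 genes. On that basis 5 of the 10 KLF members passed as higher and 0 as lower, where 27.5% of all genes passed, 15.2% as higher and 12.3% as lower. By mean intensity 0 of the 10 members lay below the array median, against 7274 of all 19775 genes. Leaving out 1 array gave 3 to 7 higher members, with 3 without siPCARNEQ array 3, and averaging arrays 2 and 3 gave 2. With the replicate block 7 members were higher and 1, KLF5, lower. The median log2 change was 0.45 for the members and -0.01 for all genes. The 15 measured other KLF and SP genes, which share the zinc finger fold, included 0 that rose and 1 that fell (3 with siPCARNEQ array 1 left out), with a median of -0.02. Of these 15 genes, 6 lay below the array median, so signal above background is not established for those 6. The one that fell was SP4, a factor close to SP1, at 9.36, 9.43 and 9.45 in siPCARNEQ cells and 9.91, 9.77 and 9.80 in siEGFP cells (change -0.41, SE 0.07, adjusted p = 0.00464). SP1 and SP3, widely expressed family members, had changes of 0.17 (adjusted p = 0.466) and 0.08 (adjusted p = 0.432). KLF7 and KLF16 had changes of -0.31 and -0.25 without passing.

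Of 13 corepressors and coactivators that KLF proteins bind, 4 rose and 2 fell, with a median of -0.08. The count that fell was 1 with siPCARNEQ array 2, siPCARNEQ array 3 or siEGFP array 2 left out. CTBP2, a CtBP corepressor and partner of KLF3, rose to 12.93, 13.05 and 12.87 in siPCARNEQ cells, against 12.36, 12.16 and 12.15 in siEGFP cells (0.73, SE 0.09, adjusted p = 0.00102). CTBP1, singled out after its values were seen, moved by -0.09 in the probe set that stands for it (adjusted p = 0.797) and by 0.69 (adjusted p = 0.0038) when probe sets ending in _s_at or _x_at, which can match several transcripts, were left out. The acetyltransferases KAT2B and CREBBP rose by 0.79 (SE 0.11, adjusted p = 0.00195) and 0.35 (SE 0.07, adjusted p = 0.00673). SAP30, a subunit of the SIN3A complex, had a change of -1.01 (SE 0.13, adjusted p = 0.00116), and of -0.30 (adjusted p = 0.066) without those probe sets. SIN3A itself, also named after its values were seen, had a change of -0.19 that did not pass.

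Of 16 measured inducers of KLF genes, 2 rose and 1 fell, and 1 rose with siPCARNEQ array 1 or siEGFP array 2 left out. MAPK7, the kinase ERK5 that drives KLF2 and KLF4 in endothelium, rose by 0.67 (SE 0.09, adjusted p = 0.00203). MEF2D, a transcription factor downstream of that kinase, rose by 0.52 (SE 0.11, adjusted p = 0.0127) but was lost when siPCARNEQ array 1 was left out (0.22, adjusted p = 0.0827) or siEGFP array 2 (adjusted p = 0.0557). THRB, a thyroid hormone receptor, was the gene of this list that fell, to 9.78, 9.61 and 9.50 in siPCARNEQ cells, against 10.65, 10.63 and 10.67 in siEGFP cells (change -1.02, SE 0.09, adjusted p = 0.000253). The glucocorticoid receptor gene NR3C1, named on the same terms, lay below the array median in both groups.

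Of 10 ubiquitin ligases reported to act on KLF proteins, 4 rose and 1 fell, with a median of 0.24. The count that rose was 1 without siEGFP array 2 or array 3 and 2 with all probe sets of a gene averaged, and the count that fell was 2 with the replicate block and without siPCARNEQ array 1. WWP1, which targets KLF2 and KLF5, rose by 0.46 (SE 0.09, adjusted p = 0.00801) and SMURF2 by 0.70 (SE 0.17, adjusted p = 0.0191). SIAH1 rose by 0.43 (adjusted p = 0.0177) and did not pass without siEGFP array 2 or array 3 (0.0745 and 0.0735), nor with all its probe sets averaged (0.112) or without probe sets ending in _s_at or _x_at (0.414). FBXO22 was the one that fell, with a change of -0.54 (SE 0.07, adjusted p = 0.00109). SMURF2 did not pass without any single siEGFP array (adjusted p = 0.0565 to 0.0685).

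Of 25 genes reported as KLF targets in various tissues, 4 rose, 4 fell and 17 did not pass, with a median of -0.01. With siEGFP array 3 left out 0 passed as lower, and with siEGFP array 2 left out 1 did. The count that rose was 2 without siPCARNEQ array 2, and both were 0 with arrays 2 and 3 averaged. CDH1, which encodes E-cadherin and is reported as activated by KLF4 and KLF6, lay at 14.19, 13.76 and 13.82 in siPCARNEQ cells and 13.32, 13.29 and 13.32 in siEGFP cells (0.61, SE 0.12, adjusted p = 0.007). ODC1, an enzyme of polyamine synthesis reported as repressed by KLF4, had a change of -0.34 (SE 0.08, adjusted p = 0.0144), and MAOB, a monoamine oxidase, of -0.43 (SE 0.10, adjusted p = 0.0156). ODC1 did not pass without siEGFP array 2 or array 3 (0.0567 and 0.0632), nor MAOB without siEGFP array 3 (0.0516). The MAOB probe set lay below the array median in siPCARNEQ cells. With all probe sets of MAOB averaged the change was -0.24 (adjusted p = 0.0432). NOS3, an endothelial KLF2 target, rose by 1.01 (SE 0.19, adjusted p = 0.00713) in a probe set ending in _s_at that lay below the array median in siEGFP cells, and had a change of -0.09 (adjusted p = 0.429) in the probe set left once such probe sets were dropped. CDKN1A and CCND1, cell cycle targets of several members singled out after their values were seen, had changes of 0.21 (adjusted p = 0.0974) and 0.48 (adjusted p = 0.0758). BIRC5 and CCNB1, named on the same terms, were among the 4 genes that fell. BIRC5 moved by -1.07, with 0.0197 as its adjusted p, and CCNB1 moved by -0.78, with 0.0418. In both genes every siPCARNEQ array lay below every siEGFP array.

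**Figure D4:**
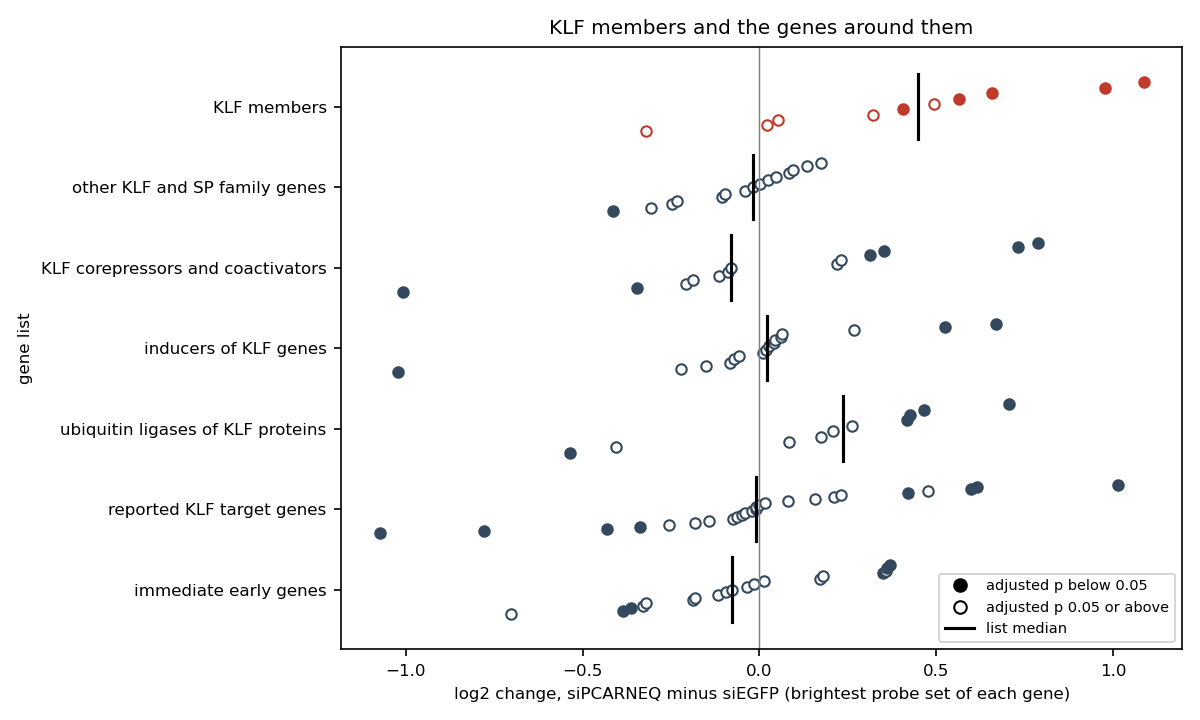
Log2 change, siPCARNEQ minus siEGFP (horizontal axis), of each gene's brightest probe set, by list, filled where the adjusted p over all genes was below 0.05 and with the list median as a black line. The median lies at 0.45 for the KLF members and at -0.02 for the other KLF and SP genes, and every other list has filled points on both sides of 0. By mean intensity, 6 of the 15 other KLF and SP genes and 0 of the 10 members lie below the array median.

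LNCaP identity was checked with marker lists. Of 6 luminal prostate markers measured, 4 rose and 0 fell, and their summed linear intensity was 55309 to 56382 in siPCARNEQ arrays and 34523 to 37972 in siEGFP arrays. The lists of 5 endothelial and 4 immune markers had 0 calls in either direction, with summed intensities of 531 to 557 in siPCARNEQ arrays and 520 to 617 in siEGFP arrays for endothelial markers, and 308 to 330 in siPCARNEQ arrays and 322 to 334 in siEGFP arrays for immune markers. Of 6 fibroblast and smooth muscle markers 2 rose (COL1A1 and LUM) and 1 fell (ACTA2), with sums of 2347 to 2878 in siPCARNEQ arrays and 1617 to 1632 in siEGFP arrays, and DCN and MYH11 had changes of 0.11 and -0.14 that did not pass. Of 4 basal markers 1 rose, KRT14, below the array median in both groups, and of 5 neuroendocrine markers 1 rose, ENO2. No list had a marker at 0, since all intensities were at least 7.35. The part of other cell types in the KLF values was not tested.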

How the data were processed

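The deposited values were probe-set intensity on a linear scale, made by the authors with RMA, per the submitters' processing notes, which give no version. RNA was extracted with Trizol, column-purified and labelled with biotin, per the labels. After sorting, log2 values were equal across the 6 arrays to within 0.0049, so total signal carries no information, and the number of arrays limits the precision. Median intensity was 130.8 on each array.

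Log2 was taken without a pseudocount. The 62 Affymetrix control probe sets of the 54675 in the table were left out. Of the 54613 others, the platform annotation lists 1 gene for 41091, several for 1801 and none for 11721. RefSeq gene identifiers updated 0 symbols, and 54 single-gene probe sets had no match. All 6 arrays entered a 2-group, 2-sided limma 3.58.1 model (lmFit, eBayes, R 4.3.3) with Benjamini-Hochberg adjustment over all probe sets, or over 19775 genes by brightest single-gene probe set, at a threshold of 0.05. The fit was tested on simulated data with independent noise on each array. That test does not bear on deviations shared between arrays or between probe sets of an array. Figures used matplotlib 3.10.9.

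The labels number the arrays 1 to 3 within each group. Deviations from group means correlated at 0.47, 0.30 and 0.34 for arrays of the same number, so the numbers were taken as pairs on that basis, no shared batch being stated. Most of it separates array 1, since arrays 2 and 3 also correlated across groups (0.37 and 0.24). The block is an alternative to the unblocked fit reported first. List genes were named by rule, up to 4 called genes of smallest p per list, while other KLF and SP genes could all be named, and further exceptions are marked. The members and lists were chosen with earlier results of these data known. List genes that lacked such a probe set were not analysed here. Alternatives were the replicate block, each array left out, arrays 2 and 3 alone or averaged, array weights, a pseudocount of 32, a dim filter, quantile normalization, an intensity trend, no _s_at or _x_at probe sets and, for lists, the mean of a gene's probe sets.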

Additional observations from a re-analysis of the deposited data

How the results depend on the processing

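The 29 KLF probe sets were recomputed under 15 alternative settings, which gave 413 values. Of these, 330 kept direction and side of the threshold, 24 no longer passed, 41 newly passed and 18 changed sign, none of the last called in either setting. With the replicate block 14 KLF probe sets were higher and 2 lower, and all 7 calls of the unblocked fit remained. Arrays 2 and 3 alone gave 17 higher and 2 lower (9078 and 8026 over all probe sets, and 19 lower genes in the related lists), and array weights 16 and 2 (9456 and 8657, and 19). Averaging arrays 2 and 3 gave 1 higher and 0 lower (1087 and 1177, and 3 higher and 3 lower list genes), with fewer samples. Without probe sets ending in _s_at or _x_at, 12 KLF probe sets were left, 2 of them higher. Of all 39114 probe sets then kept, 3030 were lower. Fewer list genes were then measured, and 10 of those were higher. Leaving out 1 array gave 3 to 14 higher and 0 lower KLF probe sets, 3048 to 7130 higher and 2775 to 6102 lower probe sets in all, and 10 to 16 higher and 6 to 17 lower list genes, against 5420, 4702, 17 and 11 with all arrays. Leaving out dim probe sets, a further quantile normalization, an intensity trend and a pseudocount of 32 kept the counts of KLF probe sets and of all probe sets within 1.5 times, while without dim probe sets 2 ubiquitin ligases passed as lower, against 1, and KLF13 219878_s_at did not pass with the pseudocount (adjusted p = 0.0529).

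Some values changed sign. KLF2 219371_s_at had -0.065 with arrays 2 and 3 alone and -0.066 with array weights, KLF15 231015_at -0.0080 and -0.0076, and with arrays 2 and 3 averaged KLF3 225140_at had -0.089 and KLF13 230094_at -0.016. Leaving out 1 array gave -0.13 to 0.15 for KLF2 219371_s_at, -0.024 to 0.18 for KLF2 226646_at, -0.016 to 0.066 for KLF15 231015_at, -0.21 to 0.63 for KLF3 225140_at, -0.081 to 0.078 for KLF13 230094_at, -0.050 to 0.097 for KLF9 228474_s_at and -0.36 to 0.11 for KLF11 1553137_s_at. Without _s_at and _x_at probe sets, another probe set stands for the gene, with -0.14 for NR4A1, -0.093 for NOS3 and 0.69 for CTBP1. CTBP1 had 0.047 with all its probe sets averaged and -0.30 to 0.062 with single arrays left out. The cause of the other changes was not tested.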

Other observations

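Several KLF genes are known as immediate early genes, so other genes of that class were read from the same fit. Of 19 measured, 3 rose, 2 fell and 14 did not pass with limma, with a median log2 change of -0.08. The count that rose was 1 with siPCARNEQ array 3, siEGFP array 2 or siEGFP array 3 left out, and the count that fell was 4 with siPCARNEQ array 1 left out and 1 with any other single array left out. DUSP1, a phosphatase that switches off MAP kinases, rose by 0.35 (SE 0.08, adjusted p = 0.0151), with arrays at 12.20, 12.06 and 11.99 in siPCARNEQ cells and 11.69, 11.72 and 11.80 in siEGFP cells, and had a change of 0.11 (adjusted p = 0.349) with all its probe sets averaged. It did not pass without siEGFP array 2 (adjusted p = 0.0636). NR4A1, an orphan nuclear receptor, rose by 0.37 (adjusted p = 0.0155) in a probe set ending in _x_at and had a change of -0.14 (adjusted p = 0.234) once such probe sets were dropped. That call was lost when siPCARNEQ array 3, siEGFP array 2 or siEGFP array 3 was left out (adjusted p = 0.0565 to 0.069). IER5, a stress-responsive early gene, had a change of -0.39 (SE 0.07, adjusted p = 0.00464), at 9.77, 9.65 and 9.66 in siPCARNEQ cells and 10.07, 10.07 and 10.09 in siEGFP cells, with no overlap. MCL1, a survival protein of the BCL2 family, had a change of -0.36 (adjusted p = 0.0242) and did not pass when any single array other than siPCARNEQ array 1 was left out (adjusted p = 0.0538 to 0.0847). FOS and EGR1, singled out after their values were seen, did not pass, at -0.70 for FOS (SE 0.38, adjusted p = 0.226) and 0.36 for EGR1 (SE 0.24, adjusted p = 0.324).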
